A study of Mus musculus with 26 samples.

Results

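Oxygen-dependent gene control and glucose breakdown were followed through 50 genes, fixed by symbol, out of 25239 genes counted in mouse embryonic stem cells with and without the gene Hmces. They comprise 18 glycolytic enzymes, 4 glucose and lactate transporters, 4 kinases that regulate glycolysis or pyruvate use, 6 subunits and oxygen sensors of the hypoxia-inducible factors (HIF), and 18 other HIF targets. All 50 were listed in both tables of untreated cells. In the tables of treated cells Car9 was listed in none, Car12 was missing from the SB431542 table and Adm from the LDN193189 table. Low-value filters kept 48 genes in each untreated table, with Adm and Car9 below them, and 47 in the fit of the treated tables.

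HIF is a dimer of an oxygen-labile alpha subunit (HIF-1α from Hif1a or HIF-2α from Epas1) and the stable partner ARNT. When oxygen is present, prolyl hydroxylases of the EGLN family mark the alpha subunit, the VHL protein binds the mark, and the subunit is degraded. When oxygen is scarce, the dimer binds short core letters such as ACGTG in promoters and enhancers. It then raises glucose transporters, most glycolytic enzymes, kinases that hold back pyruvate oxidation in mitochondria, and genes such as Vegfa, Bnip3 and its own inhibitor Egln3. Embryonic stem cells in serum culture rely strongly on glycolysis.

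The series compared wild-type (WT) and HMCES-KO cells, labelled C57BL/6 and grown on gelatin in serum medium. A count table held 2 libraries of untreated WT cells (columns headed ES) and 2 of each knockout line, headed KO7 and KO8. The titles of its samples name the lines HMCES-KO1 and HMCES-KO2, and no source used here pairs these names with the column heads. A separate table of untreated cells held 2 WT and 2 HMCES-KO libraries, headed CCE1 and CCE2 and K81 and K82. The titles of the latter name no line, and whether K8 stands for KO8, or ES and CCE for the same WT cells, is not stated. Its values are given as TPM (transcript abundance: reads per gene length, scaled to a fixed sum in each library). In 4 more TPM tables, 2 WT libraries stood beside 1 library each of the lines HMCES-KO1 and HMCES-KO2 after 2 h of treatment. The treatments were 50 ng/ml activin A, 10 µM SB431542 (an inhibitor of the activin and Nodal receptors), 10 ng/ml BMP4 and 50 nM LDN193189 (an inhibitor of BMP receptors). The sources used here do not give how the knockout lines were made or whether each is 1 clone.

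The counts assigned to genes summed to 9571113 to 13512922 read pairs per library in the count table. Whole reads recovered from TPM came to 8524110 to 10037099 per library in the untreated TPM table and 4001728 to 5363146 in the treated tables. Hmces itself was at 308 to 363 CPM (counts of the gene scaled to a fixed library total) in WT and 80.9 to 124 CPM in the knockout libraries of the count table. It was lower in every HMCES-KO library than in the WT libraries of its own table. The summed level of 8 embryonic stem cell markers was 9408 to 9477 CPM in WT and 8970 to 9369 CPM in the knockouts. Among them Dppa5a (-0.60 ± 0.05 as log2 fold change ± standard error) and Tdgf1 (-0.54 ± 0.07) fell, Pou5f1 (0.17 ± 0.04) and Zfp42 (0.16 ± 0.04) rose, and 4 did not pass the test. Of 13 primitive and visceral endoderm markers tested there, 13 were lower in the knockouts, and the sum over all 15 was 653 to 697 CPM in WT and 290.4 to 326 CPM in the knockouts, with at most 2 markers at 0 in a library. Of 4 fibroblast markers tested, Thy1 (-1.52 ± 0.10), Pdgfrb (-1.63 ± 0.17) and Col1a1 (-1.39 ± 0.32) fell, and Vim, which makes up most of their sum, rose (0.54 ± 0.06). The sum over all 6 was 240.2 to 271 CPM in WT and 234 to 399.8 CPM in the knockouts, with at most 2 at 0 in a library. The part of these marker changes in the results was not tested, and in bulk RNA fewer cells of a type and less RNA per cell cannot be told apart.

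Most of the glycolysis and hypoxia genes were lower in untreated HMCES-KO cells of the count table. Taking the mean of KO7 and KO8 against WT, 32 of 48 genes fell, against 20.8% of all 13475 genes tested, and 4 rose, against 19.9% (edgeR's quasi-likelihood test, Benjamini-Hochberg adjusted p under 0.05). The median log2 fold change was -0.46 over the 48 genes and -0.01 over all genes tested. Fold changes ran from -3.02 for Ndufa4l2 to 0.60 for Kdm3a. In 32 of the 48 genes all 4 knockout libraries lay below both WT libraries, against 26.7% of all genes. The labels do not say whether a group's libraries are separate cultures. The p-values here therefore reflect variation among these libraries alone, and that variation may be technical.

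**Figure D1:**
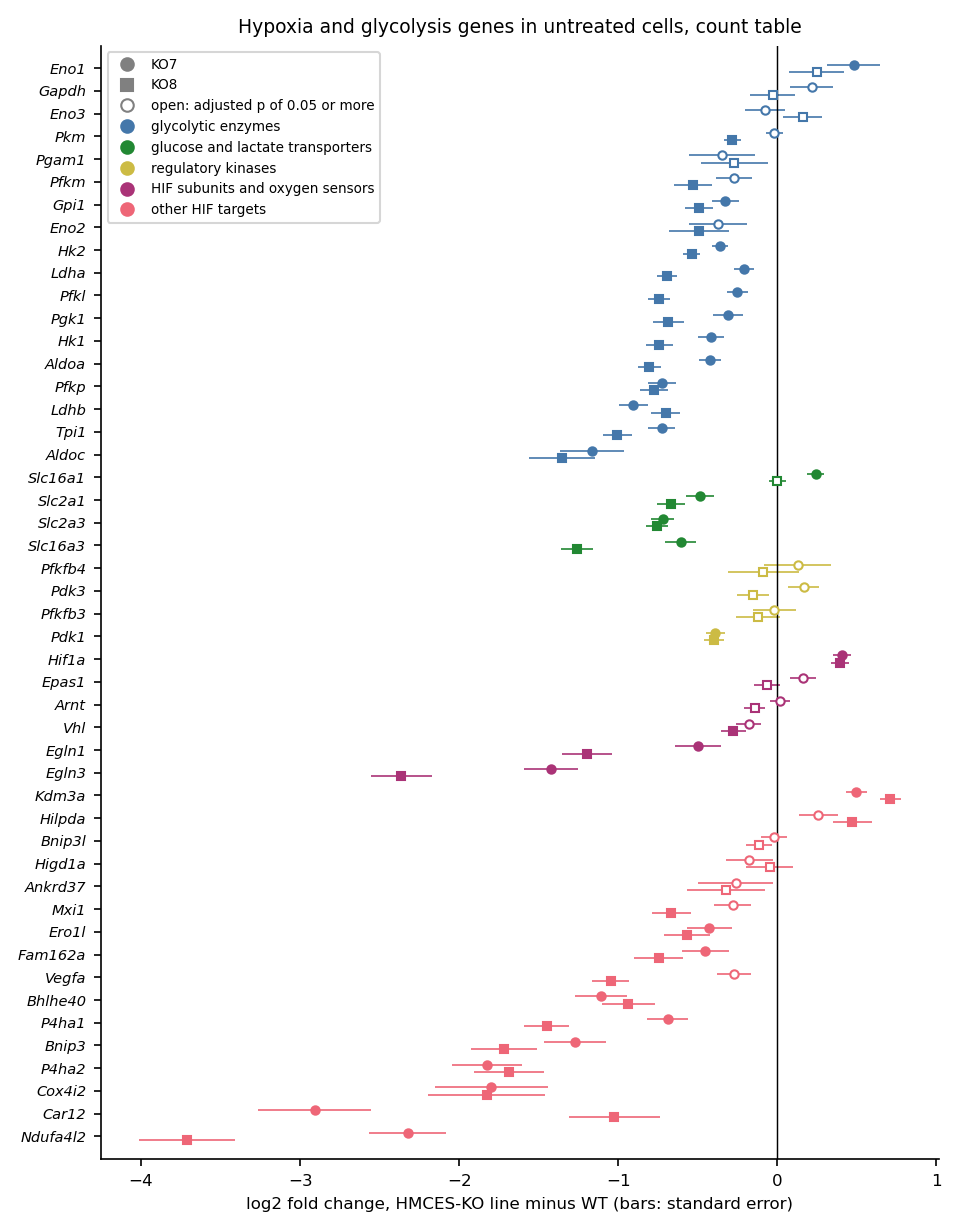
Log2 fold changes of KO7 (circles) and KO8 (squares) against WT in the count table, with standard errors, for the 48 genes tested, grouped by role. Filled symbols passed the test. Most symbols lie left of 0, from -3.71 for Ndufa4l2 in KO8 to 0.71 for Kdm3a in KO8.

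Among the 18 glycolytic enzymes, 14 fell, none rose and 4 did not pass the test, with a median log2 fold change of -0.45. The falls covered the upper pathway, where hexokinase traps glucose and phosphofructokinase commits it, and the lower pathway down to lactate dehydrogenase. Hk1, a hexokinase, read 131 and 107 CPM in WT, 88.8 and 81.1 in KO7 and 66.6 and 70.9 in KO8, a log2 fold change of -0.58 ± 0.07. All 4 knockout values lay below both WT values. Pfkp, the platelet-type phosphofructokinase, read 316 and 234 CPM in WT, 166 and 152 in KO7 and 158 and 153 in KO8 (-0.75 ± 0.07). Its exons overlap those of Pitrm1 on the opposite strand, and no strand setting is given for the counting. Reads of the 2 genes therefore cannot be told apart where they overlap, and the length of the overlap was not measured. The aldolases split fructose bisphosphate into trioses. Aldoa read 512 and 418 CPM in WT, 345 and 316 in KO7 and 256 and 259 in KO8 (-0.61 ± 0.06), and Aldoc, the less abundant form, read 41.6 and 21.5 CPM in WT, 13.8 and 13.3 in KO7 and 10.9 and 13.2 in KO8 (-1.26 ± 0.17). In both, KO8 held the lowest library and no knockout library reached WT. Tpi1, the triosephosphate isomerase, read 365 and 269.9 CPM in WT, 189 and 176 in KO7 and 156 and 150.1 in KO8 (-0.87 ± 0.07), with the exons of Spsb2 overlapping it on the other strand. Ldhb, the lactate dehydrogenase subunit that favours lactate oxidation, read 87.6 and 74.7 CPM in WT, 42.6 and 40.02 in KO7 and 44.7 and 51.9 in KO8 (-0.80 ± 0.08). Ldha, the subunit that favours lactate production, also fell, with a log2 fold change of -0.45 ± 0.05.

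The other enzymes that fell had log2 fold changes between -0.50 and -0.15. They were the phosphoglycerate kinase Pgk1, the phosphofructokinases Pfkl (-0.50 ± 0.06) and Pfkm (-0.40 ± 0.10), the hexokinase Hk2 (-0.45 ± 0.05), the enolase Eno2 (-0.43 ± 0.16), the isomerase Gpi1 (-0.41 ± 0.07), Ldha, and Pkm, the pyruvate kinase. Gapdh (0.09 ± 0.12), Pgam1 (-0.31 ± 0.18), Eno1 (0.36 ± 0.15) and Eno3 (0.04 ± 0.11) did not pass the test. Gapdh had only 17.5 to 23.8 CPM over the 6 libraries. It has 88 annotated pseudogenes that match its transcript at 95% identity or more over at least 300 bases, so its count is uncertain. In all, 11 of the 50 genes have such a pseudogene, among them Pgk1, Eno1, Pgam1, Pkm, Ldha, Ldhb, Gpi1, Tpi1, Bnip3 and Bnip3l. The 37 tested genes without one had 25 falls and a median of -0.50, and the 11 with one had 7 falls and a median of -0.41 in the count table.

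Of the 4 carriers, 3 fell and 1 rose. Slc2a3 encodes GLUT3, the high-affinity glucose carrier, and read 3072 and 2398 CPM in WT, 1581 and 1583 in KO7 and 1585 and 1546 in KO8, a log2 fold change of -0.74 ± 0.06. Slc2a1, which encodes GLUT1, read 1183 and 847 CPM in WT, 696 and 684 in KO7 and 629.7 and 602 in KO8 (-0.58 ± 0.07). The 4 knockout libraries of Slc2a3 were within 1546 to 1585 CPM, while its WT libraries differed by more than that range. Slc16a3 encodes MCT4, a lactate exporter, and read 339.8 and 237 CPM in WT, 182 and 179 in KO7 and 120.4 and 113 in KO8 (-0.93 ± 0.08), with KO8 below KO7 and KO7 below WT. Slc16a1, which encodes the widely expressed carrier MCT1, rose by 0.12 ± 0.04 on the log2 scale, from 323 to 327 CPM in WT to 364 to 368 CPM in KO7, while KO8 held 313.9 and 314.2 CPM.

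Per gene length, Slc2a3, Ldha and Slc2a1 had the highest measured levels of the 50 genes in untreated WT cells. Converted to TPM from the same counts, Slc2a3 stood at 2121 and 1638 TPM in the WT libraries, Ldha at 1399.5 and 1167, and Slc2a1 at 1257 and 890.4. Aldoa (767 and 620.3 TPM), Tpi1 (679 and 497) and Pkm (579.8 and 568) followed. Slc2a3 lay above Ldha in both libraries, the ranges of Ldha and Slc2a1 overlapped, Slc2a1 lay above Aldoa, and Aldoa, Tpi1 and Pkm overlapped in order. The first 3 places were held by the same genes in the separate untreated TPM table. In the treated tables the order differed, with WT means of 1296 TPM for Pkm, 928 for Aldoa, 689 for Ldha, 570.0 for Slc2a1 and 283 for Slc2a3. In the count table Car9 and Adm, at means of 1.34 and 1.15 TPM, were last. Genes with pseudogene copies may be undercounted, so their places in this order are uncertain. Gapdh, Eno1 and Pgam1, which have copies of up to 100% identity, had WT means of 37.3, 13.6 and 11.1 TPM. The part of the copies in these levels was not tested.

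Of the 4 kinases that steer glycolysis from outside the main chain, 1 fell and 3 did not pass the test. Pdk1 phosphorylates pyruvate dehydrogenase and so holds back the oxidation of pyruvate in mitochondria. It read 693 and 587 CPM in WT, 467 and 464 in KO7 and 460.4 and 478 in KO8 (-0.39 ± 0.05), all knockout libraries below both WT libraries. Pdk3 (0.01 ± 0.09), Pfkfb3 (-0.07 ± 0.12) and Pfkfb4 (0.02 ± 0.19) had values near 0, Pfkfb3 and Pfkfb4 encoding the enzymes that make the sugar phosphate that activates phosphofructokinase.

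The HIF machinery moved in both directions. Egln1 and Egln3, prolyl hydroxylase genes that are themselves HIF targets, fell. The third gene of the family, Egln2, is in the wider hypoxia list and rose (0.49 ± 0.07), from 83.5 and 103 CPM in WT to between 123 and 128 CPM in the 4 knockout libraries. Egln3 read 93.4 and 52.4 CPM in WT, 26.6 and 25.4 in KO7 and 11.9 and 15.5 in KO8, a log2 fold change of -1.89 ± 0.15 (edgeR adjusted p = 6.7e-09). Egln1, the main oxygen sensor of the pathway, read 101 and 60.0 CPM in WT, 57.7 and 51.4 in KO7 and 30.8 and 37.4 in KO8 (-0.85 ± 0.13). The WT libraries of both genes stood far apart, WT-1 above WT-2, yet all knockout libraries lay below WT-2. Vhl, whose product leads HIF alpha to degradation, fell by less (-0.23 ± 0.07). Hif1a rose by 0.40 ± 0.05, from 209.6 and 219 CPM in WT to between 267 and 277 CPM in the 4 knockout libraries. Epas1 (0.05 ± 0.07) and Arnt (-0.06 ± 0.06) did not pass the test. HIF-1α is controlled mostly through its stability, which RNA does not measure.

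Of the other HIF targets, 16 of 18 were tested, 11 fell and 2 rose, with a median log2 fold change of -0.63. Several act in mitochondria. Ndufa4l2, which restrains respiratory complex I, read 49.4 and 23.7 CPM in WT, 7.55 and 6.34 in KO7 and 3.34 and 2.12 in KO8, a log2 fold change of -3.02 ± 0.22 (edgeR adjusted p = 2.4e-09). Its exons overlap those of Shmt2 on the other strand. Cox4i2, the oxygen-regulated form of a cytochrome c oxidase subunit, read 4.96 and 3.10 CPM in WT, 1.11 and 1.11 in KO7 and 1.04 and 1.15 in KO8 (-1.81 ± 0.30). Bnip3, a receptor for the removal of mitochondria, read 112 and 54.2 CPM in WT, 33.8 and 32.4 in KO7 and 27.0 and 22.4 in KO8 (-1.49 ± 0.16), and Fam162a, a mitochondrial protein induced in hypoxia, read 44.9 and 28.4 CPM in WT, 27.7 and 23.4 in KO7 and 20.0 and 22.5 in KO8 (-0.60 ± 0.13). In these 4 genes every knockout library lay below both WT libraries, and WT-1 lay above WT-2. Bnip3l (-0.07 ± 0.07) and Higd1a (-0.11 ± 0.13), also mitochondrial, did not pass the test.

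The remaining targets act outside mitochondria. P4ha1 and P4ha2 encode catalytic subunits of the prolyl hydroxylase that matures collagen. P4ha2 read 25.2 and 15.2 CPM in WT, 5.03 and 6.03 in KO7 and 4.91 and 7.22 in KO8 (-1.76 ± 0.18), and P4ha1 read 67.8 and 47.3 CPM in WT, 36.6 and 31.4 in KO7 and 22.6 and 18.5 in KO8 (-1.07 ± 0.11). For P4ha1 the order was WT, KO7, KO8 with no overlap, and for P4ha2 the lines overlapped. Vegfa, the angiogenic growth factor, read 101 and 73.6 CPM in WT, 63.8 and 75.1 in KO7 and 38.2 and 43.5 in KO8 (-0.66 ± 0.09), and 1 KO7 library lay above the lower WT library. Car12, a carbonic anhydrase at the cell surface, read 7.90 and 4.89 CPM in WT, 0.814 and 0.804 in KO7 and 3.55 and 2.60 in KO8 (-1.97 ± 0.27), the lowest in KO7. Ero1l, an oxidase of the endoplasmic reticulum, had a log2 fold change of -0.50 ± 0.12 and Mxi1, a MYC antagonist, of -0.47 ± 0.10. Bhlhe40, a transcriptional repressor, read 94.8 and 51.8 CPM in WT, 33.0 and 32.3 in KO7 and 38.2 and 36.4 in KO8 (-1.02 ± 0.14), with the exons of 0610040F04Rik overlapping on the other strand. Kdm3a, a histone demethylase, was the largest rise, 180.2 and 208 CPM in WT, 261 and 261 in KO7 and 313 and 301 in KO8 (0.60 ± 0.06). Hilpda, a lipid droplet protein, rose by 0.36 ± 0.11, and Ankrd37 (-0.29 ± 0.21) did not pass the test.

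**Figure D2:**
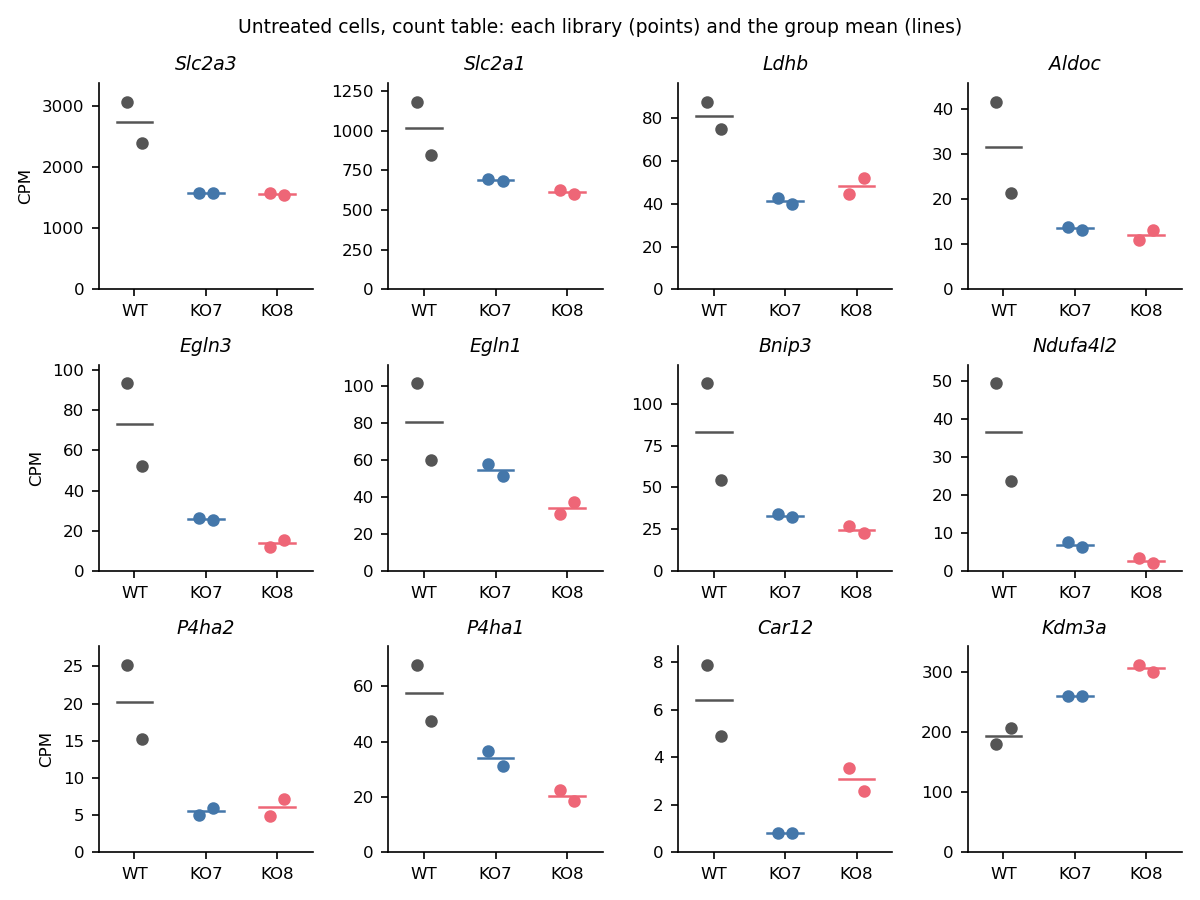
CPM of 12 of the genes in each of the 6 untreated libraries of the count table (points), with group means (lines) and axes from 0. WT-1 is the left point of each WT pair and exceeds WT-2 in every panel but Kdm3a. Knockout libraries lie below both WT libraries in 11 panels and above them for Kdm3a.

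The promoters of the falling genes with the largest fold changes that hold ACGTG, a HIF core motif, are shown for the letters themselves. Each window is the 250 bases before the RefSeq start, on GRCm38.p6 (the mm10 assembly), written 5′ to 3′ on the gene's strand, with the motif in capitals as ACGTG or, on the opposite strand, CACGT.
Egln3 (chr12:54203875-54204124, minus strand): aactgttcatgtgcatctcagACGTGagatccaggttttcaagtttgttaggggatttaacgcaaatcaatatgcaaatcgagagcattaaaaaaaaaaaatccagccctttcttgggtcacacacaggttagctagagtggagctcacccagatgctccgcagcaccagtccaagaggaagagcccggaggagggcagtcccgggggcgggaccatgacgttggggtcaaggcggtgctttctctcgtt
P4ha2 (chr11:54100674-54100923, plus strand): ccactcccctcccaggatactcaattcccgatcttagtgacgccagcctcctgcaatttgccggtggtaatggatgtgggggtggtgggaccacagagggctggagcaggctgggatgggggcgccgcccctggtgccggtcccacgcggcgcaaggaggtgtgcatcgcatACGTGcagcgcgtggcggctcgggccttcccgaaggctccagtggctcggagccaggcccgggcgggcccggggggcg
Bnip3 (chr7:138909507-138909756, minus strand): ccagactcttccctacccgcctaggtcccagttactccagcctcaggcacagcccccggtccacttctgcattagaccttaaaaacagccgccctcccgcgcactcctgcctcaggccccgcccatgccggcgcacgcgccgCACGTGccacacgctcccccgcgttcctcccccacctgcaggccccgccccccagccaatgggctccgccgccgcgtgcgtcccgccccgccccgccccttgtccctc
P4ha1 (chr10:59323046-59323295, plus strand): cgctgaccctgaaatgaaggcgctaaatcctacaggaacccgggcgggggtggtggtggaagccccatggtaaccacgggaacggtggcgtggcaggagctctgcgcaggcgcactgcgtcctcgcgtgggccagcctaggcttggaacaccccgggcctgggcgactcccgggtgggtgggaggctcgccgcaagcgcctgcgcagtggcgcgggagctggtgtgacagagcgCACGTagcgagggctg

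The match began 229 bases before the start in Egln3, 78 in P4ha2 and 16 in P4ha1. In Bnip3 a match on each strand overlapped at 108 and 107 bases before the start, as CACGTG. Of the 50 genes, 44 had a window in the RefSeq table, and 20 of these (45.5%) held the motif on either strand, against 16.6% of 27025 genes with a window and 22.0% of the 10642 such genes tested in the count table. Among genes that fell, 13 of 28 held it, and among the others 7 of 16. By role it was in 3 of 3 transporters, 3 of 5 HIF subunits and sensors, 7 of 14 other targets, 2 of 4 kinases and 5 of 18 enzymes. Slc2a3, Epas1, Bnip3l, Ndufa4l2, Cox4i2 and Bhlhe40 had no window. Only ACGTG on either strand was searched, so other forms of the core were neither marked nor counted. A match says only that the letters ACGTG are present.

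More of the genes fell in KO8 than in KO7, and the fits share the WT libraries. In KO7, 26 of 48 genes fell (19.2% of all genes tested) and 4 rose (19%), with a median log2 fold change of -0.34. In KO8, 32 fell (19.7%) and 3 rose (19.3%), with a median of -0.62. Each of the 26 genes lower in KO7 was also lower in KO8, and Eno2, Mxi1, Pfkm, Pkm, Vegfa and Vhl were lower in KO8 only by the test against WT, so the lines were compared directly. KO8 against KO7 gave 18 lower genes (14.3% of all genes) and 2 higher (13.9%), with a median of -0.19 over the 48 genes and -0.00064 over all. The largest differences were in Car12, which was higher in KO8 (1.88 ± 0.41), and in Ndufa4l2 (-1.39 ± 0.38), Egln3 (-0.94 ± 0.21), Vegfa (-0.78 ± 0.12), P4ha1 (-0.76 ± 0.15) and Egln1 (-0.70 ± 0.16), which were lower in KO8. Of the 6 genes lower in KO8 alone, Mxi1, Pkm and Vegfa differed between the lines, and Eno2, Pfkm and Vhl did not pass that test. DESeq2 called 12 of the genes between the lines (17.5% of all genes). Leaving out 1 library gave 9 without KO7-1, 12 without KO8-1 and 13 without KO8-2. Endoderm markers also differed between the lines, with 8 of 13 lower in KO8, 1 higher and a median of -0.89.

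The WT libraries of the count table differed from each other in these genes. WT-1 exceeded WT-2 in 39 of 48 genes, by a median of 0.32 on the log2 scale, while over all genes the median was 0.03 and 56.6% were higher in WT-1. The paired KO7 libraries had a median difference of 0.02 and the KO8 libraries of -0.0098. Over all genes WT-1 and WT-2 differed by more than counting error, with a median chi-square of 1.77 where counting alone gives 0.455, against 0.695 in the KO7 pair and 0.703 in the KO8 pair. Without WT-1 the median log2 fold change of these genes in the mean of the lines was -0.32, and without WT-2 it was -0.61. The medians over all genes in these refits are not given here. With all knockout libraries as 1 group, so that the difference between lines counts as spread, 21 genes passed the test (19 lower), against 11.5% of all genes. Hmces lies on chromosome 6, as do 10 of the tested genes. They are Hk2, Tpi1, Gapdh, Eno2, Ldhb, Slc2a3, Vhl, Kdm3a, Bhlhe40 and Hilpda. Of these 7 fell (median -0.44), of the 38 elsewhere 25 fell (median -0.49), and the 638 tested genes of the chromosome had a median of -0.28, with 50.3% called lower against 20.8% of all genes.

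Wider lists of the same pathways were read against the same shares of all genes, 20.8% lower and 19.9% higher. Of 34 other glycolysis genes, 27 were tested, 11 fell and 1 rose, with a median of -0.10. The gene that rose was Pdhb, a subunit of pyruvate dehydrogenase (0.47 ± 0.16). Among those that fell were the hexokinase-like Hkdc1 (-2.27 ± 0.42) and the phosphoglucomutase Pgm1 (-1.38 ± 0.12). Of 40 other hypoxia genes, 38 were tested, 16 fell and 9 rose, with a median of -0.25. Pygl, the liver glycogen phosphorylase (-2.42 ± 0.35), Loxl2, a lysyl oxidase (-1.82 ± 0.21), and Anxa2, an annexin (-1.56 ± 0.19), changed most. Besides Egln2, those that rose included Hif1an, which encodes the asparagine hydroxylase that inhibits HIF (0.27 ± 0.05), and Hmox1, a heme oxygenase (0.39 ± 0.05), both chosen after their values were seen.

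The separate TPM table of untreated cells gave another picture. There 5 of 48 genes fell (10.2% of 13314 genes tested) and 5 rose (5.8%) in limma on log2(TPM + 1), a scale that understates changes of low values. The median log2 fold change was -0.05 over the 48 genes and -0.06 over all genes. The HMCES-KO libraries lay below both WT libraries in 22 genes, against 39.3% of all genes, and above both in 14, against 23.3%.

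The 5 that fell were Vegfa, Gapdh, Epas1, Ankrd37 and Hk1. Vegfa read 46.2 and 39.8 TPM in WT and 22.5 and 27.2 in HMCES-KO (-0.77 ± 0.12), and Hk1 read 41.4 and 44.7 TPM in WT and 31.1 and 32.9 in HMCES-KO (-0.42 ± 0.08). These 2 were also lower in the count table. Epas1, which encodes HIF-2α, read 60.2 and 54.8 TPM in WT and 34.6 and 37.4 in HMCES-KO (-0.66 ± 0.08), Gapdh read 34.1 and 49.1 TPM in WT and 23.7 and 24.3 in HMCES-KO (-0.75 ± 0.17), and Ankrd37, an ankyrin repeat protein, read 15.0 and 13.7 TPM in WT and 10.2 and 9.68 in HMCES-KO (-0.49 ± 0.12). Among the 5 that rose, 4 were lower in the count table. Slc2a1 read 697 and 683 TPM in WT and 781 and 754 in HMCES-KO (0.15 ± 0.03), Slc2a3 read 1281 and 1291 TPM in WT and 1471 and 1440.4 in HMCES-KO (0.18 ± 0.03), and Egln3 read 37.6 and 37.1 TPM in WT and 46.1 and 46.0 in HMCES-KO (0.30 ± 0.06). Both knockout libraries of each lay above both WT libraries, opposite to the count table. Vhl read 64.5 and 62.8 TPM in WT and 81.4 and 81.7 in HMCES-KO (0.35 ± 0.05), and Slc16a1 read 251 and 245 TPM in WT and 293 and 293 in HMCES-KO (0.24 ± 0.04), the carrier that also rose in the count table. Slc2a3 and Vhl lie on chromosome 6. The 10 tested genes of this set on it had a median of 0.13 here, and the 38 elsewhere -0.09. All 630 tested genes of that chromosome had a median of 0.05.

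Other leading genes of the count table did not pass the test here. Bnip3 read 65.0 and 66.8 TPM in WT and 62.6 and 57.1 in HMCES-KO (-0.14 ± 0.07), Ndufa4l2 25.99 and 21.1 TPM in WT and 30.2 and 38.1 in HMCES-KO (0.51 ± 0.15), P4ha2 11.3 and 10.0 TPM in WT and 12.6 and 10.3 in HMCES-KO (0.09 ± 0.15) and P4ha1 27.8 and 25.4 TPM in WT and 24.8 and 24.5 in HMCES-KO (-0.10 ± 0.09). Of the 32 genes lower in the count table, 18 had a negative fold change here. Ndufa4l2 stood at 140.1 and 66.4 TPM in the WT libraries of the count table, Bnip3 at 175 and 83.5 and Egln3 at 95.4 and 53.0, with 23.6, 65.9 and 37.3 TPM as WT means of the other table. The tables were normalized separately, so these levels are set side by side without a test. The Hmces level fell in both tables. Endoderm markers had 3 of 10 tested lower here, with a sum of 298 to 316 TPM in WT and 226 to 228 TPM in HMCES-KO. The count of called genes was 2 without either WT library. On the whole reads recovered from TPM, edgeR called 18 of the genes, 13 higher (14.3% of all genes) and 5 lower (13.7%).

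**Figure D3:**
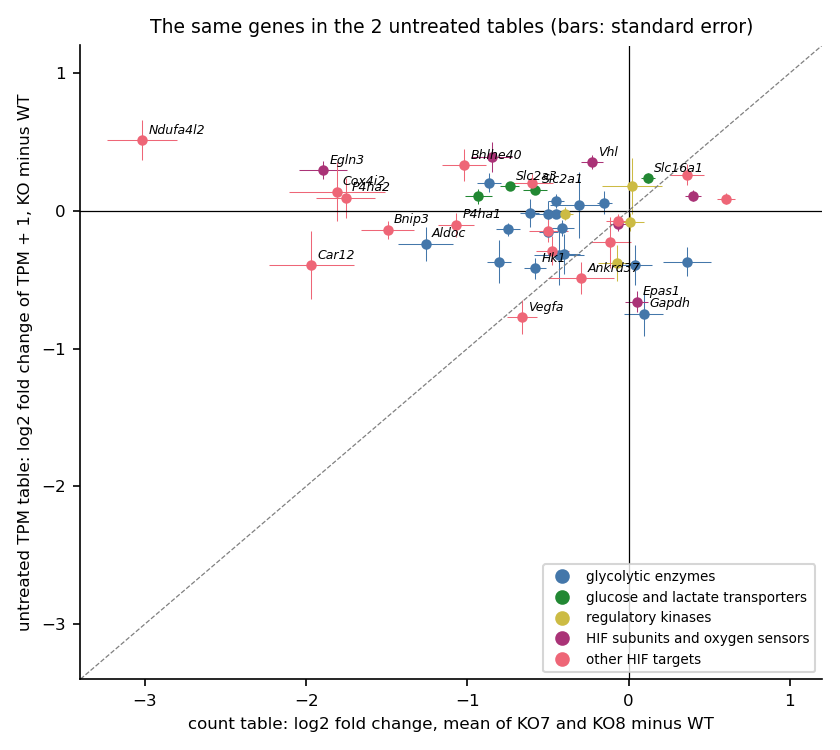
Log2 fold changes of the same genes in the count table (horizontal, mean of KO7 and KO8 minus WT) and in the untreated TPM table (vertical), with standard errors. The dashed line marks equal values. Egln3, at -1.89 against 0.30, and Ndufa4l2, at -3.02 against 0.51, lie far above it, while Vegfa, at -0.66 against -0.77, lies close to it.

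In the tables of cells treated for 2 h, fewer of the genes passed the test than in the count table. The test, the read totals and the genes listed also differ, so these counts do not measure an effect of treatment. Averaged over the 4 treated tables, 21 of 47 genes fell (20.7% of 12608 genes tested) and 1 rose (13.8%), with a median of -0.30 against -0.04 over all genes (limma on log2(TPM + 1)). Of the 32 genes lower in the count table, 17 (53.1%) fell here, and these made up 81% of the 21. The other 15, among them Ldha, Pfkl, Pfkm, Pfkp, Eno2 and Egln1, were not called lower. These 15 include Car12, which was not tested in the treated tables. Pfkp, like Slc2a1, had both HMCES-KO libraries above WT under BMP4 and LDN193189. Of the 10 genes on chromosome 6, 5 fell in the mean (median -0.33), and of the 37 elsewhere 16 fell (median -0.30). Of the 584 genes of that chromosome, 27.4% were called lower, against 20.7% of all genes tested. Libraries of the same knockout line recur in all 4 tables and are taken as separate, so variation among knockout lines is not covered by these p-values.

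Of 18 glycolytic enzymes 10 fell, the most in Ldhb, Pgam1, Pkm and Gpi1. Pkm, the pyruvate kinase, ran from 1164 to 1454 TPM (median 1278) over the 8 WT libraries and 423 to 733 (median 595) over the 8 HMCES-KO libraries (-1.17 ± 0.07). Ldhb ran from 364 to 541 TPM (median 447) over the 8 WT libraries and 149.5 to 253 (median 185) over the 8 HMCES-KO libraries (-1.24 ± 0.06), and Gpi1, the glucose phosphate isomerase, from 82.2 to 108 TPM (median 98.1) over the 8 WT libraries and 40.4 to 54.7 (median 46.6) over the 8 HMCES-KO libraries (-1.0 ± 0.05). In these 3 genes the highest HMCES-KO library lay below the lowest WT library. Pkm and Gpi1 had smaller changes in the count table, at -0.15 and -0.41, a comparison of values from separately made tables that was not tested. Aldoa ran from 620.3 to 1294 TPM (median 917) over the 8 WT libraries and 481 to 631 (median 529.6) over the 8 HMCES-KO libraries (-0.76 ± 0.06), and the ranges overlapped. Pgam1, the phosphoglycerate mutase, ran from 8.41 to 18.7 TPM (median 10.8) over the 8 WT libraries and 2.26 to 6.74 (median 4.66) over the 8 HMCES-KO libraries (-1.24 ± 0.23). Pgk1 (-0.50 ± 0.10), Hk2 (-0.45 ± 0.08), Hk1 (-0.39 ± 0.11), Tpi1 (-0.38 ± 0.08) and Aldoc (-0.58 ± 0.13) fell by less.

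Hk2 ran from 64.7 to 102 TPM (median 80.96) over the 8 WT libraries and 43.4 to 68.3 (median 63.8) over the 8 HMCES-KO libraries. Hk1 ran from 10.1 to 14.7 TPM (median 10.7) over the 8 WT libraries and 6.01 to 10.2 (median 8.78) over the 8 HMCES-KO libraries, Tpi1 from 154 to 191 TPM (median 187) over the 8 WT libraries and 93.2 to 189.9 (median 138) over the 8 HMCES-KO libraries and Pgk1 from 95.5 to 139 TPM (median 116) over the 8 WT libraries and 69.0 to 109.6 (median 81.5) over the 8 HMCES-KO libraries. The genotypes overlapped in all 4 genes. Aldoc ran from 9.11 to 24.4 TPM (median 14.9) over the 8 WT libraries and 5.30 to 11.9 (median 10.5) over the 8 HMCES-KO libraries. The WT libraries of Aldoc fell into 2 levels by treatment, which several genes shared. Under BMP4 both HMCES-KO libraries of Aldoc lay above both WT libraries, and under LDN193189 the genotypes overlapped.

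Among the transporters and kinases, Slc2a3 ran from 224 to 352 TPM (median 281) over the 8 WT libraries and 183 to 217 (median 193) over the 8 HMCES-KO libraries (-0.49 ± 0.05), without overlap between genotypes. Slc2a1 (-0.32 ± 0.05) and Slc16a3 (-0.44 ± 0.07) fell in the mean, with overlapping ranges. For Slc2a1 both HMCES-KO libraries lay below both WT libraries under activin A and SB431542 and above them under BMP4 and LDN193189. Slc16a1 did not pass the test (0.00 ± 0.04). Slc16a3 ran from 109 to 162 TPM (median 127) over the 8 WT libraries and 70.2 to 124 (median 93.8) over the 8 HMCES-KO libraries. The kinase Pdk1 ran from 46.7 to 66.9 TPM (median 56.8) over the 8 WT libraries and 35.6 to 50.5 (median 43.0) over the 8 HMCES-KO libraries (-0.36 ± 0.07), and Pfkfb3 from 1.33 to 3.94 TPM (median 2.13) over the 8 WT libraries and 1.04 to 2.44 (median 1.23) over the 8 HMCES-KO libraries (-0.51 ± 0.16), from 13 to 46 recovered reads per library.

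Of the HIF subunits and sensors, Epas1 and Egln3 fell in the mean. Under BMP4 Egln3 went the other way, with both HMCES-KO libraries above both WT libraries. Epas1 ran from 15.2 to 24.1 TPM (median 22.3) over the 8 WT libraries and 10.7 to 17.7 (median 12.5) over the 8 HMCES-KO libraries (-0.66 ± 0.11), and Egln3 from 12.8 to 30.5 TPM (median 25.0) over the 8 WT libraries and 9.51 to 24.8 (median 15.1) over the 8 HMCES-KO libraries (-0.54 ± 0.13). Of 15 other HIF targets tested, 4 fell and 1 rose. Cox4i2 ran from 9.63 to 38.2 TPM (median 22.6) over the 8 WT libraries and 3.11 to 25.3 (median 11.9) over the 8 HMCES-KO libraries (-1.04 ± 0.15), Bhlhe40 from 45.8 to 186 TPM (median 80.3) over the 8 WT libraries and 28.5 to 77.0 (median 42.1) over the 8 HMCES-KO libraries (-0.91 ± 0.15), and Vegfa from 20.0 to 28.8 TPM (median 23.9) over the 8 WT libraries and 9.92 to 28.1 (median 14.7) over the 8 HMCES-KO libraries (-0.59 ± 0.10). The ranges overlapped in each. Hilpda, the gene that rose, ran from 69.5 to 108 TPM (median 84.8) over the 8 WT libraries and 85.0 to 116 (median 98.6) over the 8 HMCES-KO libraries (0.20 ± 0.07). Bnip3l fell (-0.65 ± 0.20) at a level of 0.301 to 2.48 TPM (median 1.00) over the 8 WT libraries and 0 to 0.663 (median 0.278) over the 8 HMCES-KO libraries, and Bnip3 lay between 0 and 2.64 TPM, although both stood at 57.1 TPM or more in every library of the untreated TPM table. Both have pseudogene copies, and the part of these in the low values was not tested. Ndufa4l2 (-0.39 ± 0.20), Fam162a (-0.11 ± 0.08), P4ha1 (-0.27 ± 0.14) and P4ha2 (-0.31 ± 0.18) did not pass the test here.

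By treatment, 16 genes fell under activin A (7.03% of all genes tested), 16 under SB431542 (6.73%), 4 under BMP4 (4.2%) and 3 under LDN193189 (1.5%). Ldhb, Pkm and Gpi1 fell under all 4, and all 3 have pseudogene copies. Of the 11 genes with a copy, 3 fell under BMP4 (median -0.66) and 3 under LDN193189 (median -0.37), and of the 36 without one, 1 (median -0.09) and 0 (median -0.07). The part of the copies in these values was not tested. Under BMP4 the other was Epas1 (-0.93 ± 0.21). The count under LDN193189 was 6 (5.58% of all genes) with WT replicate number and knockout line as blocks. It was 1 without WT-1, 0 without WT-2 and 5 without the HMCES-KO2 library of that table. Under activin A it was 7 without WT-2 of that table, and under SB431542 it was 10 without WT-1, 9 without WT-2 and 10 without the HMCES-KO1 library.

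Between the ligand and the inhibitor of the same receptors, almost no gene of the whole set tested was called, and none of these genes was. The absence of calls is therefore not particular to these genes. Between activin A and SB431542, limma called 0 of 47 genes in WT (0.0159% of all genes) and 0 in HMCES-KO (0.103%), with 1 and 3 at an unadjusted p under 0.05. Between BMP4 and LDN193189 it called 0 in WT (0.0317%) and 0 in HMCES-KO (0.0238%), with 2 and 2 at that level. The genotype effect differed between ligand and inhibitor in 0 genes for either pathway (0% of all genes), with 2 at an unadjusted p under 0.05 for activin A and SB431542 and 1 for BMP4 and LDN193189. edgeR on the recovered reads also called 0 in each of these 6 comparisons. The limma fits here did not use the knockout line as a block, so differences between the lines counted as spread.

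The tables instead fell into pairs, with activin A beside SB431542 and BMP4 beside LDN193189. This contrast was chosen after seeing the data, and treatment and table are the same split, so the pathway and the making of the table cannot be told apart. In WT, 9 genes were higher under activin A and SB431542 (4.69% of all genes) and 2 lower (4.92%). Slc2a1 was at 696 to 823 TPM in the 4 WT libraries of the first pair and 353 to 374 TPM in those of the other (1.07 ± 0.07). The HMCES-KO libraries held 402 to 463 and 395 to 455 TPM, so the 2 levels were seen in WT and the HMCES-KO ranges overlapped. Slc2a3 showed 322 to 352 against 224 to 241 TPM in WT and 183 to 217 against 187 to 212 TPM in HMCES-KO. Aldoa, Aldoc, Bhlhe40, Cox4i2, Hk2, Ldhb and Pdk1 were the other genes higher in WT, with log2 differences from 0.33 (Pdk1) to 1.19 (Bhlhe40). Ldha (-0.43 ± 0.08) and Eno3 (-0.75 ± 0.20) were lower. Endoderm markers had 4 of 13 lower under activin A and SB431542 in WT.

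In HMCES-KO, 5 genes were lower under activin A and SB431542 (1.57% of all genes), and with the knockout line as a block 10 differed (6.88%). They were Vegfa (-1.04 ± 0.15), Slc16a3 (-0.50 ± 0.10), Pfkp (-0.49 ± 0.09), Pkm (-0.43 ± 0.11) and Gpi1 (-0.32 ± 0.08). Vegfa was at 9.92 to 11.5 TPM in HMCES-KO under activin A and SB431542 and at 17.8 to 28.1 TPM under BMP4 and LDN193189, while WT held 21.9 to 28.8 and 20.0 to 26.7 TPM. The levels that differed between the pairs of tables were thus those of WT for Slc2a1 and those of HMCES-KO for Vegfa.

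The genotype effect itself was more negative under activin A and SB431542 in 8 genes (0.46% of all genes tested had such a change), and with blocks 14 passed (2.83%), 13 of them more negative. The differences in log2 fold change were -1.87 ± 0.30 for Cox4i2, -1.27 ± 0.27 for Aldoc, -1.12 ± 0.21 for Vegfa, -1.05 ± 0.10 for Slc2a1, -0.76 ± 0.12 for Ldhb, -0.70 ± 0.14 for Slc16a3, -0.63 ± 0.12 for Aldoa and -0.51 ± 0.10 for Slc2a3. They include 3 of the 4 transporters. The count rests on most of the libraries: leaving out 1 treated library gave 1 to 9 genes, and 13 of the 16 such fits gave 5 or fewer.

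**Figure D4:**
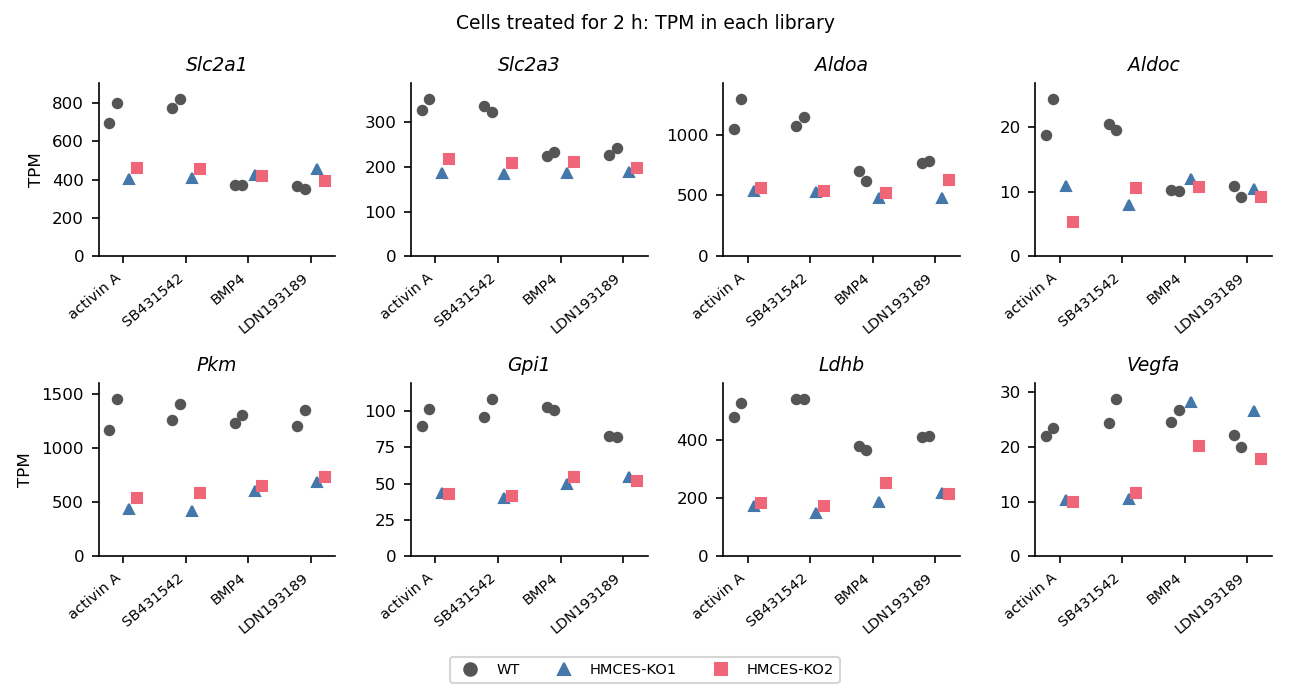
TPM of 8 genes in each library of the 4 treated tables, axes from 0; circles are WT, triangles HMCES-KO1 and squares HMCES-KO2. WT libraries of Slc2a1 sit at 696 to 823 TPM under activin A and SB431542 and at 353 to 374 TPM under BMP4 and LDN193189, and for Pkm, Gpi1 and Ldhb all HMCES-KO libraries lie below WT in every table.

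Between the lines of the treated tables, 1 of 45 genes tested differed. Tpi1 was higher in HMCES-KO2 than in HMCES-KO1, by 0.35 ± 0.08 on the log2 scale, against 2.65% of all genes higher (limma with treatment as a block). Tpi1 lies on chromosome 6, whose 567 tested genes had a median of 0.18 in this contrast. The 10 genes of this set on it had a median of 0.18, and the 35 elsewhere -0.04. Egln3 (-0.28 ± 0.18), Ndufa4l2 (-0.69 ± 0.19) and Vegfa (-0.23 ± 0.16), which differed between KO7 and KO8, did not pass the test. Hmces itself was at 325 to 399.8 TPM in the HMCES-KO1 libraries and 143 to 184 TPM in the HMCES-KO2 libraries. Since the column heads KO7 and KO8 are not paired with these line names, the line contrasts of the 2 sets of tables were not joined.

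**Figure D5:**
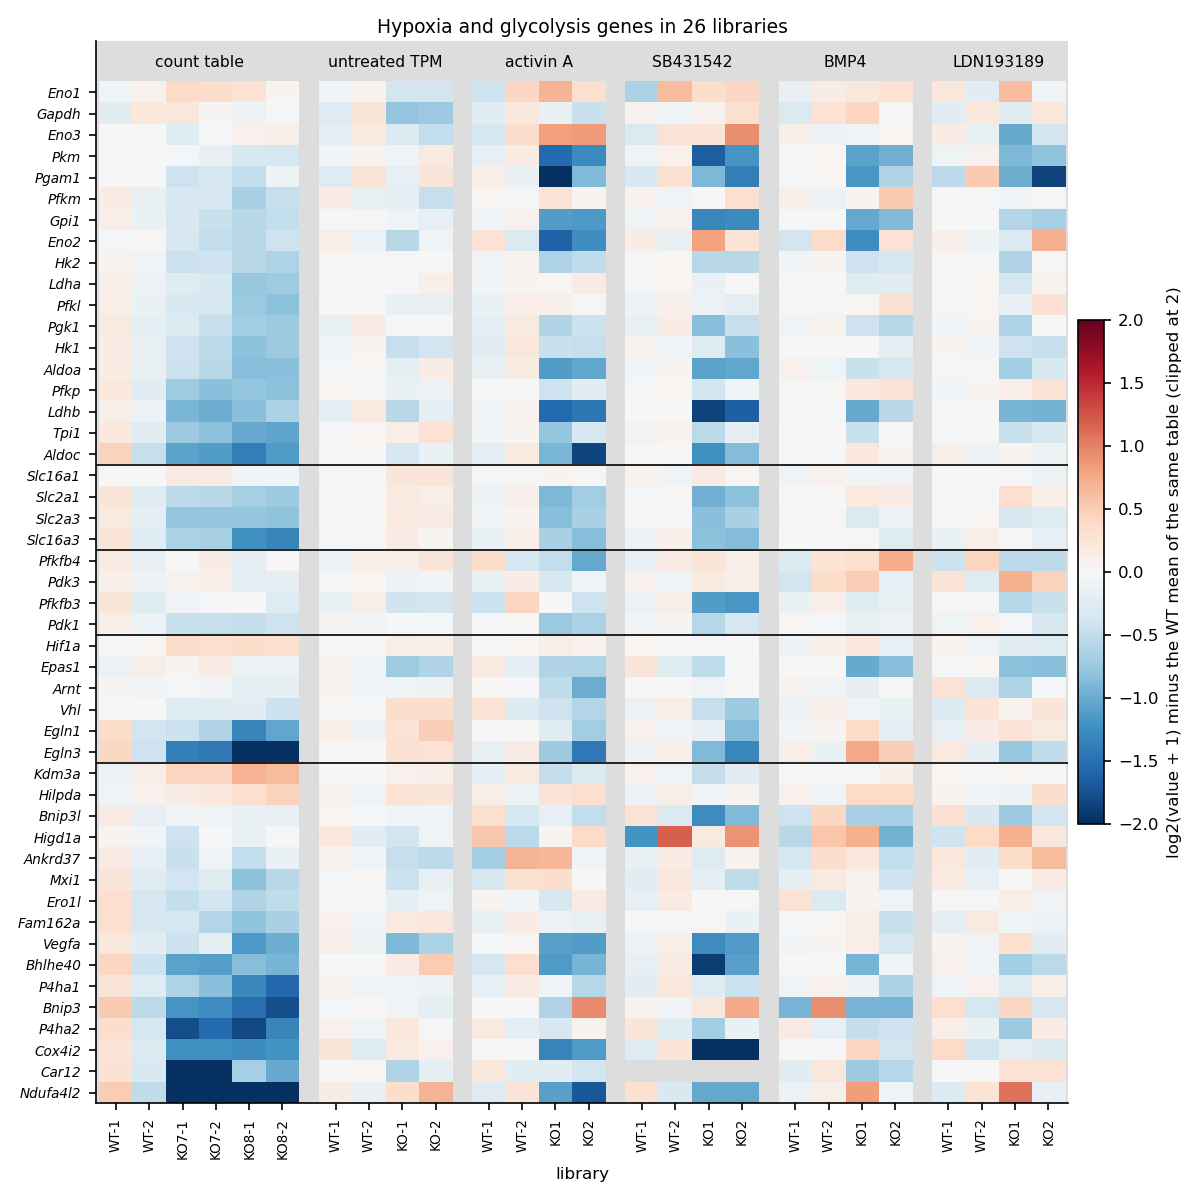
The 48 genes tested in the count table (rows, by role) in all 26 libraries (columns, by table), as log2 of the value plus 1 minus the WT mean of the same table, with colours clipped at 2 and grey where a gene is not listed. Blue runs through most rows of the knockout columns of the count table, is patchy in the untreated TPM table, and under activin A and SB431542 is dark for Ldhb, Pkm, Gpi1, Cox4i2 and Vegfa.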

How the data were processed

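Untreated cells and cells treated for 2 h were profiled by RNA-seq in 26 libraries. Reads were aligned with Bowtie2 2.3.3 to mm10 and handled with FastQC 0.11.5, SAMtools 1.9, featureCounts 2.0.1 and DESeq2, per the submitters' processing notes. The deposited count table holds raw counts of read pairs per gene from featureCounts, per the file headers. The 5 other tables hold TPM that the authors computed, and the sources used here do not give how genes were chosen for the treated tables.

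Counts were tested with edgeR 4.0.16 (quasi-likelihood, TMM, filterByExpr, 3 groups) in R 4.3.3, and TPM with limma 3.58.1 (trend) on log2(TPM + 1), keeping genes at 1 TPM or more in 2 libraries. The 16 treated libraries were fitted as 8 groups over the 12928 genes in all 4 tables. DESeq2 1.42.0 was an alternative. Of the TPM values above 0 in the untreated table, 100% were whole reads (tolerance 0.01), and 12924 genes of the treated tables gave whole reads (tolerance 0.05). Same-numbered libraries did not deviate together (r -0.02 to 0.03). The same knockout line did across treatments (r 0.23 to 0.32), so line pairs those libraries. The main fits of genotype and treatment in the treated tables did not use this pairing. Scripts were tested on simulated data. Pseudogene copies were matched with blastn 2.17.0.

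The genes, lists and tests were chosen with earlier results of these data known. Values per library are given for genes past the edgeR test with a log2 fold change of at least 0.5 in size, for those past the limma tests, and for the 6 that differed most between lines; a few others were added after their values were seen.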

Additional observations from a re-analysis of the deposited data

Results flagged for a closer look

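Among the 4 knockout libraries of the count table, KO8-2 stood apart in 2 of 48 genes by Dixon's test. Slc2a3 was at 1546 CPM there and 1581 to 1585 CPM in the others, and Vhl was at 57.9 CPM there and 65.5 to 66.9 CPM in the others. Chance alone marks about 1 in 20 such groups.

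KO8 differed from KO7 in 20 genes (edgeR, log2 fold change in parentheses). Lower in KO8 were Ndufa4l2 (-1.39), Egln3 (-0.94), Vegfa (-0.78), P4ha1 (-0.76), Egln1 (-0.70), Slc16a3 (-0.65), Pfkl (-0.49), Ldha (-0.48), Mxi1 (-0.39), Aldoa (-0.38), Pgk1 (-0.37), Hk1 (-0.33), Pdk3 (-0.32), Tpi1 (-0.28), Pkm (-0.26), Slc16a1 (-0.24), Epas1 (-0.23) and Hk2 (-0.18). Higher in KO8 were Kdm3a (0.21) and Car12 (1.88). Between the lines of the treated tables, Tpi1 differed by 0.35 (limma). It lies on chromosome 6, whose tested genes had a median of 0.18 there.

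The HMCES-KO effect under activin A and SB431542 minus that under BMP4 and LDN193189 passed limma's test in Cox4i2 (-1.87), Aldoc (-1.27), Vegfa (-1.12), Slc2a1 (-1.05), Ldhb (-0.76), Slc16a3 (-0.70), Aldoa (-0.63) and Slc2a3 (-0.51).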

How the results depend on the processing

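Counts are of the 48 or 47 genes passing each test. Counts in this paragraph, and those above with 1 library left out, stand without the share of all genes. That share is given above for some of the other settings. Where it is not, a shift of these genes alone cannot be read from the counts. For the mean of the lines against WT, with 36 in the count table, 21 passed with all knockout libraries as 1 group, and 30 to 41 with 1 library left out. DESeq2 gave 33, and a replicate block 35. For KO8 against KO7, with 20, DESeq2 gave 12, and leaving out 1 library 9 to 25. In the untreated TPM table, with 10, limma without trend gave 0, edgeR on recovered reads 18, and leaving out 1 library 2 to 15. There Aldoa changed sign, to 0.15, without HMCES-KO replicate 1 and was -0.18 without replicate 2. Under activin A leaving out 1 library gave 7 to 18, and under SB431542 9 to 16. Under BMP4, with 4, the table alone gave 1. Under LDN193189, with 3, a 5 TPM minimum gave 5, the replicate block 6, the table alone 0, and leaving out 1 library 0 to 5. For activin A and SB431542 against BMP4 and LDN193189 in HMCES-KO, with 5, limma without trend gave 2, the replicate block 10, and leaving out 1 library 2 to 6. For the difference of the HMCES-KO effect, with 8, these gave 1, 14, and 1 to 9. Between the treated lines, with 1, a pseudocount of 0.1 and limma without trend each gave 0, edgeR on reads 3, and leaving out a treatment gave 0 for activin A, 0 for BMP4 and 2 for LDN193189. The causes were not tested. Each group holds 2 libraries, or 1 of each line, which limits every test, and the low reads of Bnip3, Bnip3l and Pfkfb3 in the treated tables limit theirs.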
